A study of Mus musculus with 72 samples.

Results

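The comparison is between 6 libraries of joined DNA ends: 3 from cells given aphidicolin together with ART558 and 3 from cells given ART558 alone, all with a Cas9 break on chromosome 6. They are the 6 libraries of the whole series' 72 that carry this bait, genotype and pair of treatments in its inhibitor collection, and all 6 share 1 sequencing run. The cells were neural progenitors (NPC) derived from embryonic stem cells, all of 1 line, Nxp010, with the genotype NestinCre+ Xrcc4-/- p53-/-, so both groups lack Xrcc4 and p53. Aphidicolin was given at 0.5 µM for 72 h and then at 0.25 µM for 24 h, and ART558 at 5 µM for 72 h and then at 2.5 µM for 24 h. The 2 DMSO libraries and the 1 aphidicolin library of the same bait and collection are given beside them as values, with no test. The labels do not say whether replicates were separate cultures, and the study calls them technical repeats in one place and biological replicates in another, so p-values measure the spread between these libraries, which may be technical.

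Xrcc4 is the partner of DNA ligase IV in classical non-homologous end joining, and cells without it rely on alternative joining. DNA polymerase theta (Pol θ) is a main enzyme of that alternative route: it pairs short stretches of identical bases (micro-homologies) between resected ends and extends them. ART558 inhibits its polymerase activity. Aphidicolin slows replicative polymerases, and in neural progenitors the resulting breaks gather in long, transcribed genes, the recurrent DNA break clusters (RDCs). LAM-HTGTS, a translocation sequencing method based on linear amplification, reads outward from a primer beside a Cas9 break (the bait) into whatever DNA end (the prey) was joined to it, so it counts joined ends and not breaks as such. The comparison asks what replication stress still does to the recovered junctions when Pol θ is inhibited.

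The bait sequence shows which bases a junction can lose or share. The guide matches chr6:70950103-70950125 (mm10, minus strand), between genes, with Foxi3, a forkhead factor gene, 6423 bp away and Eif2ak3, a stress kinase gene, 44863 bp away; its protospacer-adjacent motif is in capitals. The bait runs from the primer to the cut over chr6:70950109-70950206 on the minus strand, with its 17 guide bases in capitals, and an end that keeps all 98 bp is called full-length here.
Guide: gagggttggaaatgctcgtaTGG
Bait: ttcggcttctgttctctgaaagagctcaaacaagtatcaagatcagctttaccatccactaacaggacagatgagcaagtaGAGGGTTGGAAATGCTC

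The aphidicolin plus ART558 libraries held 6843, 9713 and 6363 junctions, of which 3186, 4434 and 3532 lay on chromosomes other than 6. The ART558 libraries held 5075, 4722 and 10880, with 1928, 3078 and 3778 on other chromosomes. Levels are given per 1000 other-chromosome junctions of the same library, so a library that recovered more junctions near the bait is not counted as higher. ART558 replicate 1 ends in the middle of a line and holds 2 of the 4 lanes of the others. ART558 replicate 2 had 65.5% of its junctions on other chromosomes, against 34.8% to 58.1% in the other 5 libraries. In aphidicolin plus ART558 replicate 3, 81.0% of the junctions over 1 Mb from the break were at a position not seen before in that library, against 93.1% to 97.2% in the other 5. Satellite-like bins on chromosomes 2, 9 and 14 took 14.7% of the other-chromosome junctions in ART558 replicate 1 and 15.4% in aphidicolin plus ART558 replicate 3, against 1.72% to 4.58% in the rest. Calls and differences that depend on 1 library are given with their values without it.

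On the bait chromosome, aphidicolin on top of ART558 went with many more junctions in RDC genes of late-replicating constant timing regions (CTRs, where a whole domain replicates together). Over the 9 CTR windows of chromosome 6, the density was 10.4, 8.24 and 5.47 junctions per 1000 per Mb in the 3 aphidicolin plus ART558 libraries and 1.09, 0.469 and 1.26 in the 3 ART558 libraries. The means were 8.05 ± 2.48 and 0.943 ± 0.419 (SD, n = 3 each, exact permutation test, two-sided, p = 0.10, the smallest that 3 against 3 can give), a ratio of 8.54. Every library with both drugs was above every library with ART558 alone. The 2 DMSO libraries were at 2.30 and 2.02 and the aphidicolin library at 13.4, so the 3 libraries with both drugs lay below the single aphidicolin library and above both DMSO libraries.

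Timing transition regions (TTRs, where replication forks travel in 1 direction between early and late domains) hold 3 RDC windows on chromosome 6. Their density was 2.09, 1.95 and 1.51 with both drugs and 1.56, 1.30 and 0.618 with ART558 alone (exact permutation p = 0.20, n = 3 each), and the groups overlapped. The difference of 0.695 was 0.425 without ART558 replicate 3. The DMSO libraries were at 2.08 and 3.31 in these TTR windows and the aphidicolin library at 3.96. Outside RDC windows, at over 1 Mb from the break, chromosome 6 held 0.885, 0.926 and 0.603 junctions per 1000 per Mb with both drugs and 0.872, 0.770 and 1.11 with ART558 alone (exact permutation p = 0.60, n = 3 each). RDC windows took 45.9%, 39.5% and 40.1% of all chromosome 6 junctions over 1 Mb away with both drugs, against 11.3%, 7.49% and 8.20% with ART558 alone and 42.4% in the aphidicolin library. The remaining junctions of the chromosome thus overlapped between the groups while the RDC windows did not.

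**Figure D1:**
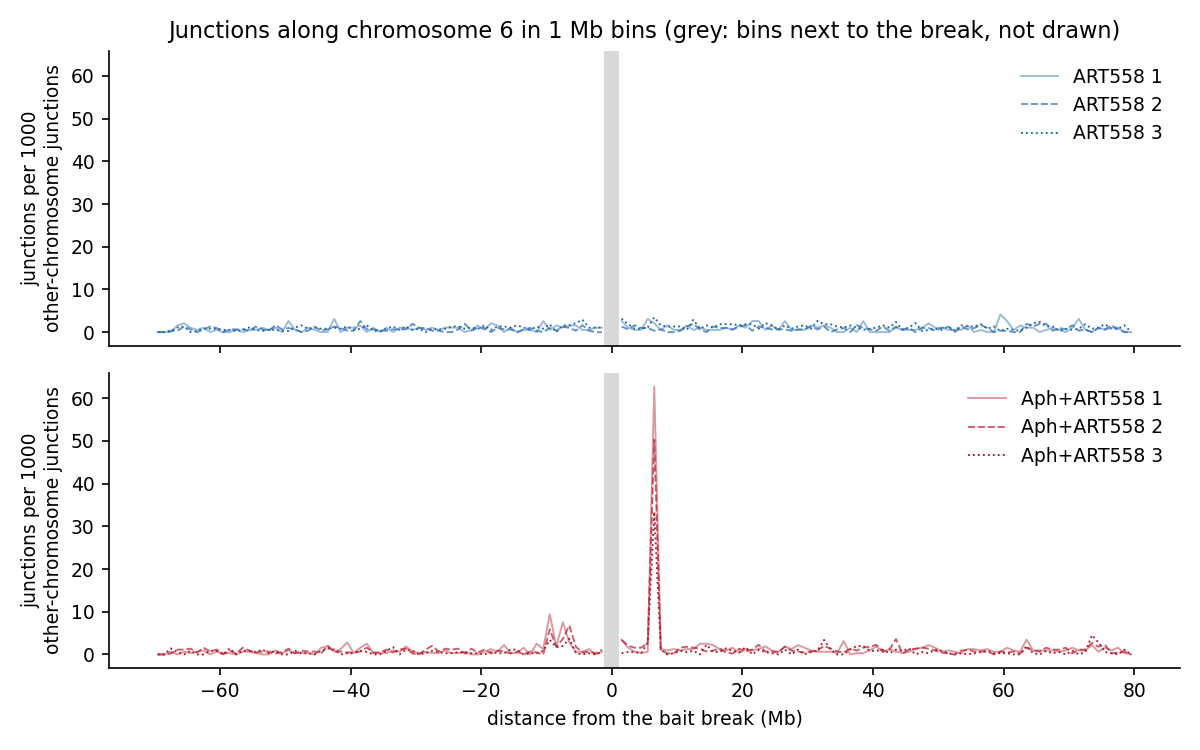
Junctions along chromosome 6 in 1 Mb bins, per 1000 other-chromosome junctions (vertical axis), against the distance from the bait break in Mb (horizontal axis), with 1 line per library, ART558 above and aphidicolin plus ART558 below. The bin that holds most of Ctnna2, 6 to 7 Mb from the break, is the peak in all 3 libraries with both drugs and the bin of Ccser1 rises on the other side; no such peak is seen with ART558 alone.

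Ctnna2, which encodes alpha-N-catenin, the neuronal link between cadherins and actin, held the most junctions of the 12 windows. Its 1 Mb window (chr6:77000001-78000000, centre 6.55 Mb from the break, most of it in the minus-strand gene at chr6:76881637-77979699) had 201, 220 and 118 junctions with both drugs and 4, 1 and 13 with ART558 alone. Per 1000 other-chromosome junctions these were 63.1, 49.6 and 33.4 against 2.07, 0.325 and 3.44, with means of 48.7 ± 14.9 and 1.95 ± 1.56 (SD, n = 3 each), a ratio of 25 that was 40.6 without ART558 replicate 3 and 17.7 to 28.9 without any other 1 library. The aphidicolin library stood at 71.8 and the DMSO libraries at 4.93 and 3.70. This 1 window held 28.9%, 24.5% and 24.9% of all chromosome 6 junctions over 1 Mb away with both drugs, 1.61%, 0.299% and 2.13% with ART558 alone, and 23% with aphidicolin alone. The junctions were at 191, 203 and 88 distinct positions with both drugs, and 1 junction over all 12 RDC windows was identical between replicates 1 and 3.

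Ccser1, a long gene on the other side of the break that is known as a common fragile site, had the same order, with 35, 30 and 18 junctions with both drugs and 2, 3 and 6 with ART558 alone, or 7.62 ± 3.04 against 1.20 ± 0.338 per 1000 (SD, n = 3 each). Its window is centred 9.15 Mb from the break. Sox5, a SoxD transcription factor gene 73.25 Mb away, had 7, 12 and 14 against 0, 1 and 3, or 2.96 ± 0.909 against 0.373 ± 0.399 per 1000. Its 14 junctions in replicate 3 were at 6 positions. In neither of these genes did a library with ART558 alone reach one with both drugs.

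When chromosome 6 windows and bins were fitted together with those of the other chromosomes, 4 of 732 rose past an adjusted p of 0.05 (limma, Benjamini-Hochberg; 0.546% of those tested) and 0 fell. Ctnna2, Sox5 and Ccser1 were among the 4. Ctnna2 rose by 4.89 on the log2 scale of junctions plus 0.5 (SE 0.940, limma adjusted p = 7.71e-05). Sox5 rose by 2.62 (SE 0.631, limma adjusted p = 0.00815) and Ccser1 by 2.44 (SE 0.618, limma adjusted p = 0.0153). Without ART558 replicate 2 the fit called 2 windows, and Ctnna2 and Ccser1 were not among them. Without aphidicolin plus ART558 replicate 2 it also called 2, without Sox5 and Ccser1. Ccser1 was also lost without aphidicolin plus ART558 replicate 1, and Sox5 without its replicate 3. A filter of 5 junctions in place of 10, or none, left 2, Ctnna2 among them.

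The windows that were not called differed less. In Grm8, a group III metabotropic glutamate receptor gene, the counts were 7, 10 and 7 with both drugs and 3, 5 and 3 with ART558 alone. In Exoc6b, an exocyst subunit gene, they were 6, 7 and 5 against 2, 1 and 2. Both are TTR windows, and in both the 3 libraries with both drugs were above the 3 with ART558 alone per 1000, at ratios of 1.62 and 2.58, with no call in the limma fit. Per 1000, Grm8 was at 2.20, 2.26 and 1.98 with both drugs and at 1.81 and 2.86 with DMSO. Exoc6b was at 1.88, 1.58 and 1.42 with both drugs, below its DMSO values of 2.46 and 3.87. The aphidicolin library was at 3.20 in each. Exoc4, another exocyst subunit gene, had 9, 7 and 1 against 0, 1 and 4, and Foxp1, a forkhead repressor gene, had 8, 3 and 4 against 2, 1 and 3. Magi1, a junctional scaffold gene, and Cacna1c, an L-type calcium channel gene, had overlapping groups. Snd1, a nuclease-domain gene, was the 1 window with a lower mean, at 3, 4 and 2 against 3, 2 and 6.

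Of the 12 windows, 11 had a higher mean with both drugs, and in 6 of them (4 CTR and 2 TTR) the groups did not overlap; in 0 were all libraries with both drugs lower. Over all 732 windows and bins fitted, groups did not overlap in 6.01% with both drugs higher and in 4.92% with both lower. Among the 122 chromosome 6 bins outside RDC windows that held a junction, 2.46% had such non-overlapping higher groups and 4.92% lower ones. Without Ctnna2, the density over the other 11 windows was still 3.37, 2.77 and 1.85 with both drugs and 1.13, 0.709 and 0.890 with ART558 alone (exact permutation p = 0.10, n = 3 each), a ratio of 2.93 (2.54 to 3.37 without each library). There the DMSO libraries were at 2.00 and 2.22, above replicate 3 with both drugs, and the aphidicolin library was at 5.51.

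**Figure D2:**
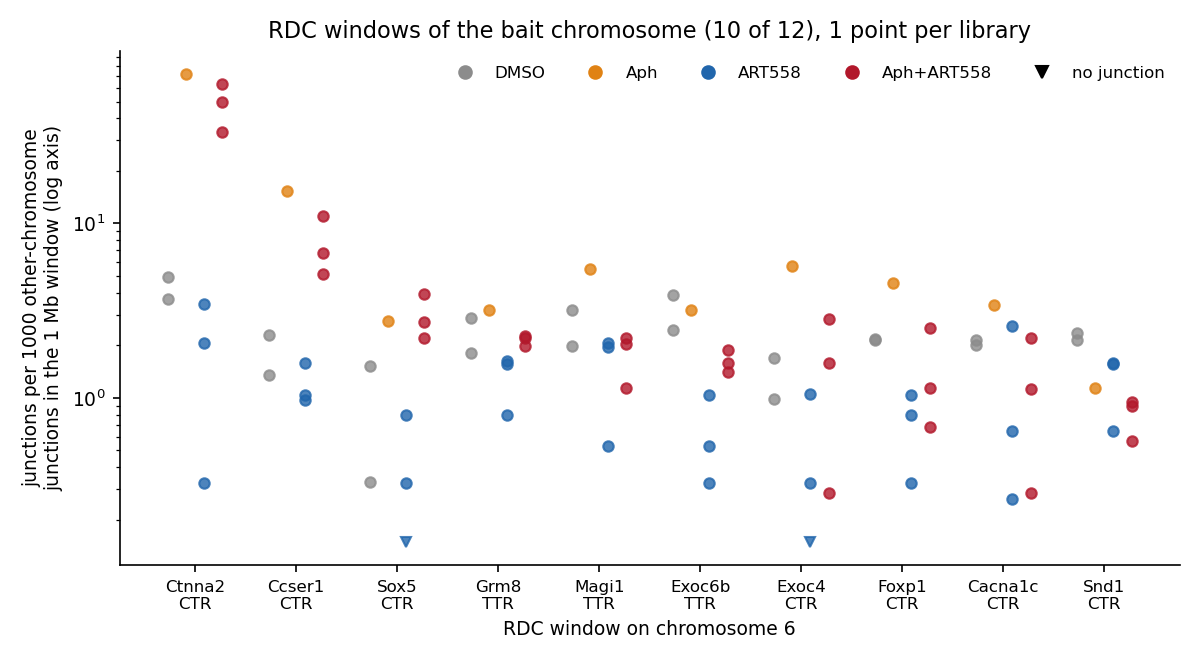
Junctions per 1000 other-chromosome junctions (vertical axis, log scale) in 10 of the 12 RDC windows of chromosome 6 (horizontal axis, with the timing class), 1 point per library and triangles for a library without a junction. In Ctnna2, Ccser1, Sox5, Grm8 and Exoc6b all 3 points with both drugs lie above all 3 with ART558 alone.

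Inside Ctnna2 the junctions were gathered in the middle of the gene and were split by strand. With both drugs 85.1%, 76.7% and 80.5% of the junctions in the gene lay in the middle of 3 equal parts of it, against 76.4% in the aphidicolin library and 32.4% and 30.8% in the DMSO libraries. The ranges between the quartiles were 158, 195 and 163 kb with both drugs, 215 kb with aphidicolin and 685 and 397 kb with DMSO, over a gene of 1098 kb. The ART558 libraries held 4, 1 and 13 junctions in the gene, which is too few to set a shape. Minus-strand prey made up 57.7%, 64.8% and 60.2% with both drugs. The median plus-strand junction lay at a higher coordinate than the median minus-strand junction by 112, 168 and 196 kb in the 3 libraries, by 168 kb with aphidicolin and by 316 and 29.0 kb in the DMSO libraries, over 34 and 26 junctions. Minus-strand prey made up 58.8% and 57.7% with DMSO. By the offsets, the same order of strands was also seen without either drug.

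With both drugs the same order of strands was seen in the plus-strand gene Ccser1. Its offset was 123, 292 and 47.3 kb with both drugs and 270 kb with aphidicolin, over 36, 32 and 18 junctions in the gene with both drugs. It was -179 and 350 kb in the DMSO libraries, over 17 and 16 junctions, so 1 of these had the opposite order. In Sox5, with 6, 13 and 14 junctions, it was -62.2, 228 and 214 kb, so 1 of its 3 libraries had the opposite order.

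**Figure D3:**
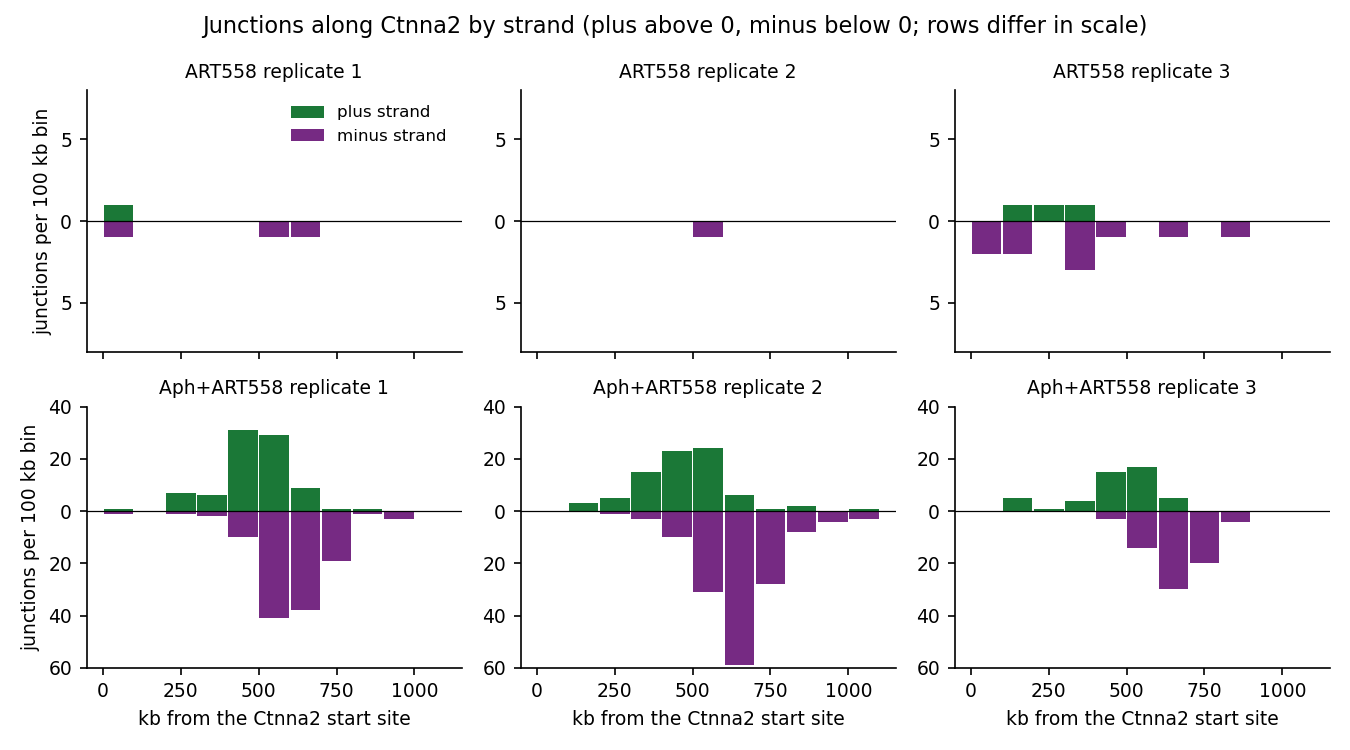
Junctions per 100 kb bin along Ctnna2 (vertical axis, plus-strand prey above 0 and minus-strand prey below) against kb from the gene's start site (horizontal axis), with 1 panel per library and different vertical scales for the 2 rows. With both drugs the plus-strand junctions centre closer to the start site than the minus-strand junctions in all 3 libraries; the ART558 libraries hold 4, 1 and 13 junctions.

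Junctions into Ctnna2 show the kinds of join in these windows. One read of each kind is given per library with both drugs, with 20 bases of bait and 20 of prey, shared bases counted with the bait; capitals mark the bases shared by bait and prey, or the inserted bases between them, and a direct join has none. Direct joins, at chr6:77557608, chr6:77145687 and chr6:77469003:
Replicate 1: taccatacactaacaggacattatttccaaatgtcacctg
Replicate 2: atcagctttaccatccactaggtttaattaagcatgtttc
Replicate 3: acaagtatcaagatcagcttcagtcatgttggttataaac
Micro-homology, at chr6:77417061 with 2 bp, chr6:77108052 with 2 bp and chr6:77361496 with 3 bp:
Replicate 1: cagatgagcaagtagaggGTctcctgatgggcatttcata
Replicate 2: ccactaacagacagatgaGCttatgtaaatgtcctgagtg
Replicate 3: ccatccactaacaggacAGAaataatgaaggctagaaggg
Insertions, at chr6:77393307 with 18 bp, chr6:77240577 with 17 bp and chr6:77436259 with 10 bp:
Replicate 1: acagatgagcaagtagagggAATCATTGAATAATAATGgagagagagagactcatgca
Replicate 2: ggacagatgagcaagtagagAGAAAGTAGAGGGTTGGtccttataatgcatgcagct
Replicate 3: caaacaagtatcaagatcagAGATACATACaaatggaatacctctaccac
The bait ends had lost 29, 37 and 49 of their 98 bases in the direct joins, 11, 22 and 27 in the micro-homology joins and 12, 14 and 52 in the reads with an insertion.

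With both drugs, the share of junctions with an insertion was higher in the chromosome 6 RDC windows than in junctions over 1 Mb from the break outside them, and near that within 1 Mb. They were present in 46.1%, 44.2% and 56.8% of 319, 355 and 190 junctions there (95% Wilson intervals 40.7 to 51.6, 39.1 to 49.4 and 49.7 to 63.7, for counting error). Elsewhere on chromosome 6 at over 1 Mb they were in 17.8%, 27.8% and 26.4%, and on other chromosomes in 18.4%, 22.5% and 33.9%. The difference from the rest of chromosome 6 was 28.3, 16.4 and 30.4 percentage points, positive in 3 of 3 libraries (exact sign-flip permutation p = 0.25, the smallest that 3 libraries allow). In the aphidicolin library the shares were 20.03% and 16.7%, a difference of 3.37 points. Within 1 Mb of the break the share was 46.1%, 49.4% and 51.9% with both drugs, and the RDC windows differed from it by -0.0460, -5.22 and 4.91 points.

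In the ART558 libraries the same windows held 28, 25 and 50 junctions, with insertions in 42.9%, 12% and 28% against 29.5%, 14.2% and 30.7% on the rest of the chromosome. The differences there were 13.3, -2.24 and -2.71 points. The RDC-minus-rest difference was thus 25.04 ± 7.54 points with both drugs and 2.79 ± 9.12 with ART558 alone (SD, n = 3 each, exact permutation p = 0.10, adjusted p = 0.15 over 6 measures of the join). Without Ctnna2 the differences with both drugs were 25.4, 11.5 and 26.4 points and with ART558 alone 20.5, -5.91 and -0.985, and the groups overlapped (exact permutation p = 0.20, n = 3 each).

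Full-length bait ends were rare in the same windows. They made up 2.82%, 2.82% and 3.68% of the junctions there with both drugs, against 21.3%, 14.0% and 22.2% on the rest of chromosome 6 over 1 Mb away and 25.5%, 22.1% and 20.3% on other chromosomes. The aphidicolin library had 4.15% in the windows and 10.8% on the rest of the chromosome. In the ART558 libraries the windows had 17.9%, 28% and 12% and the rest of the chromosome 11.4%, 26.2% and 11.96%. The RDC-minus-rest difference was -16.0 ± 4.21 points with both drugs and 2.77 ± 3.34 with ART558 alone (SD, n = 3 each, exact permutation p = 0.10, adjusted p = 0.15 over the same 6 measures), and the groups did not overlap. Direct joins with no shared base and no insertion made up 16.5%, 22.3% and 20.7% of the insertion-free junctions in the windows and 28.6%, 33.3% and 32.5% on the rest of the chromosome with both drugs. The RDC-minus-rest difference was -12.1, -11.0 and -11.8 points with both drugs and -6.57, 11.5 and 3.87 with ART558 alone (exact permutation p = 0.10, n = 3 each, adjusted p = 0.15). Without Ctnna2 it was -8.92, -11.4 and 5.70 with both drugs and the groups overlapped (exact permutation p = 0.30, n = 3 each). Insertions over 5 bp differed by 11.9 ± 4.45 points with both drugs and -5.14 ± 2.04 with ART558 alone (exact permutation p = 0.10, n = 3 each, adjusted p = 0.15). In the last 2 of the 6 measures the groups overlapped. The recovered bait differed by -3.36 ± 1.75 bp with both drugs and -0.143 ± 6.04 bp with ART558 alone (exact permutation p = 0.70, n = 3 each, adjusted p = 0.70), and the mean micro-homology by 0.444 ± 0.235 bp and 0.0293 ± 0.451 bp (exact permutation p = 0.20, n = 3 each, adjusted p = 0.24).

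**Figure D4:**
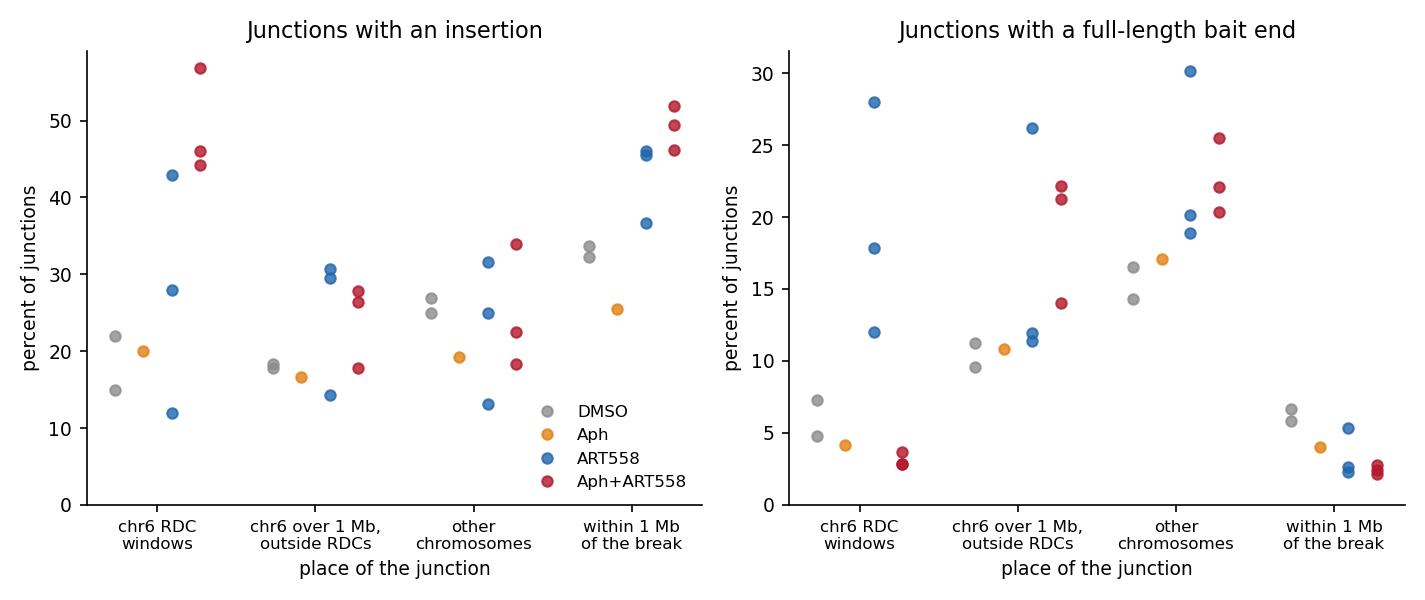
Share of junctions with an insertion (left) and with a full-length bait end (right), in percent (vertical axes), by the place of the prey (horizontal axes), 1 point per library and 1 colour per treatment. The 3 libraries with both drugs are at 44.2% to 56.8% insertions and 2.82% to 3.68% full-length baits in the chromosome 6 RDC windows, near their values within 1 Mb of the break.

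Insertions were seldom found whole in nearby sequence in the libraries with ART558. Insertions copied only in part from nearby sequence were not counted as found. Of the insertions of 10 to 30 bp within 1 Mb of the break, 35.3% and 36.2% in the DMSO libraries were found whole within 200 bases of the bait break or of the prey junction, and 25.4% in the aphidicolin library. With ART558 alone this was 9.96%, 5.16% and 7.84%, and with both drugs 6.03%, 4.80% and 4.10%. In the RDC windows with both drugs it was 1 of 50, 1 of 61 and 2 of 31, against 6 of 26 in the aphidicolin library. This search was chosen after the data were seen and has no test.

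Away from the bait chromosome, RDC windows showed no difference that the libraries could resolve. Over 33 CTR windows the density was 0.542, 0.636 and 0.412 with both drugs and 0.456, 0.305 and 0.449 with ART558 alone, with means of 0.530 ± 0.112 and 0.403 ± 0.0851 (SD, n = 3 each, exact permutation p = 0.30). The difference of 0.126 was 0.0736 without aphidicolin plus ART558 replicate 2 and 0.0774 without ART558 replicate 2. Over 62 TTR windows it was 0.435, 0.473 and 0.352 against 0.427, 0.503 and 0.410 (exact permutation p = 0.60, n = 3 each). The aphidicolin library was at 0.741 and 0.837 in these classes, above all 6. Non-RDC bins were at 0.406, 0.401 and 0.407 with both drugs and at 0.408, 0.409 and 0.409 with ART558 alone, a difference of -0.00371 with no overlap (exact permutation p = 0.10), which turned to 0.00375 when the satellite-like bins were left out of the total. These bins are part of the total they are divided by, so their density is not independent of that in RDC windows. The log2 ratio of RDC to non-RDC density was 0.22, 0.40 and -0.13 against 0.10, 0.09 and 0.05 (exact permutation p = 0.70, n = 3 each), and 1.06 with aphidicolin.

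**Figure D5:**
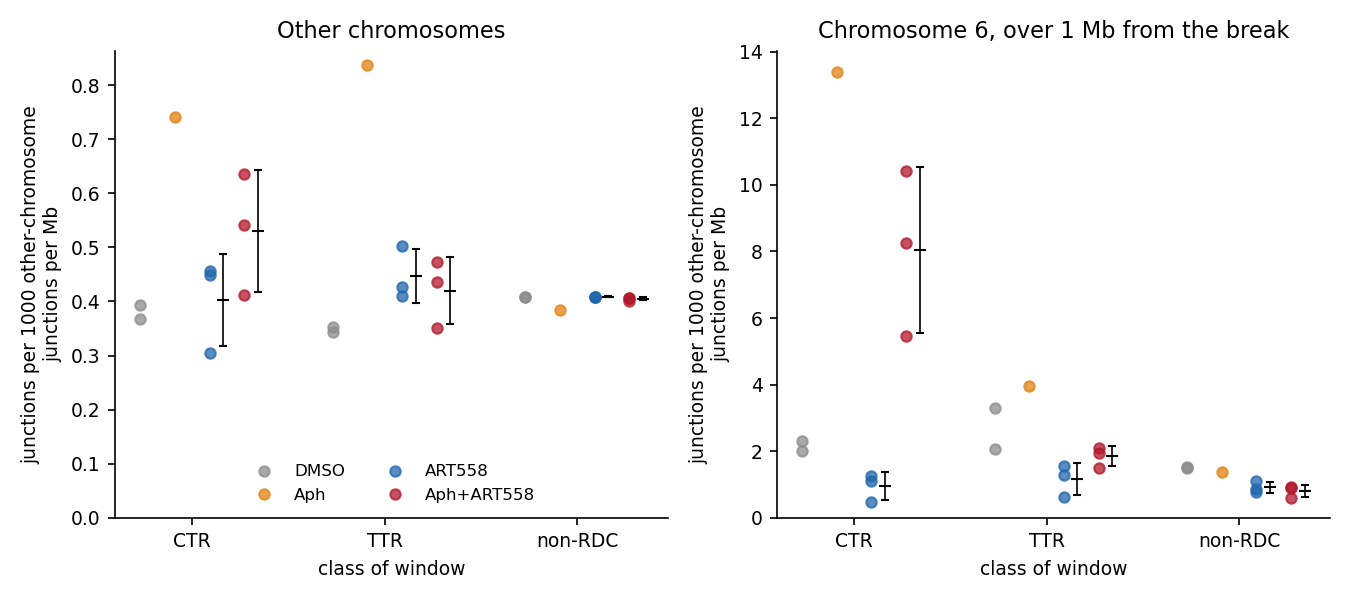
Junction density per 1000 other-chromosome junctions per Mb (vertical axes) in CTR windows, TTR windows and non-RDC bins (horizontal axes), on other chromosomes (left) and on chromosome 6 over 1 Mb from the break (right), with 1 point per library and the mean ± SD beside groups of 3. The groups overlap for CTR and TTR windows on the left, and in the CTR class on the right the 3 points with both drugs, 5.47 to 10.4, lie above the 3 with ART558 alone, 0.469 to 1.26.

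Single windows off chromosome 6 gave no call: 0 of 609 windows and bins passed an adjusted p of 0.05 in either direction (limma; 14 higher and 17 lower at an unadjusted p under 0.05), and 38 of the 95 RDC windows there held the 10 junctions needed. The mean was higher with both drugs in 24 of 33 CTR windows and in 30 of 62 TTR windows. The median log2 difference of those tested was 0.85 in CTR windows and 0.14 in TTR windows, beside -0.09 over all windows tested. The groups did not overlap in 3 RDC windows with both drugs higher and in 8 with both drugs lower, 3.16% and 8.42% of 95, where the background over all 609 was 5.75% and 5.09%.

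By function, the genes off chromosome 6 were mixed. Among scaffolds, Magi2, which anchors synaptic and junctional proteins, had 5, 5 and 3 junctions with both drugs and 1, 2 and 1 with ART558 alone, while Erc2, an active-zone protein gene, had 3, 0 and 1 against 1, 4 and 5. Of the 7 scaffold windows 3 had a higher and 4 a lower mean. Prkg1, a cGMP-dependent kinase gene, had 3, 6 and 3 against 1, 1 and 2. In Magi2 and Prkg1 the groups did not overlap, with both drugs higher, and both missed the limma threshold.

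Of 12 synaptic adhesion windows, 5 had a higher and 7 a lower mean. Mdga2, a neuroligin-binding protein gene, had 3, 3 and 10 with both drugs against 2, 0 and 1, the highest log2 difference off chromosome 6 at 1.65 (SE 0.730, limma adjusted p = 0.94), and its replicate 3 alone held 10. Negr1, a neuronal adhesion protein gene, had 0, 2 and 2 against 3, 1 and 6. Il1rapl1, a postsynaptic organiser gene, had 1, 4 and 4 against 0, 2 and 1. Adgrb3, an adhesion receptor gene, had 1, 1 and 0 against 3, 1 and 2, and per 1000 its groups did not overlap, with both drugs lower.

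Among cadherins, protocadherins and catenins off chromosome 6, 4 windows had a higher and 2 a lower mean, with Pcdh9 at 6, 4 and 0 junctions against 0, 0 and 2. Both genes of neuregulin signalling had a higher mean: the ligand Nrg3 had 2, 7 and 1 against 2, 1 and 0, and its receptor Erbb4 had 0, 2 and 1 against 0, 2 and 0. Of 7 transcription regulators 5 had a higher mean, led by Auts2, a Polycomb-associated regulator gene, at 3, 7 and 7 against 2, 1 and 3; Zbtb20, a zinc finger repressor gene, had 0, 2 and 2 against 3, 1 and 4. Of 5 receptor tyrosine phosphatases 3 were higher and 2 lower, with Ptprd at 1, 3 and 4 against 0, 1 and 0.

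In the fragile site list off chromosome 6, 3 of 5 had a higher mean; Wwox had 3, 5 and 0 against 1, 1 and 2, and Lrp1b 1, 3 and 0 against 0, 3 and 2. In Wwox the log2 difference was -0.13, opposite in sign to its mean. Among the 3 CSMD genes, which encode CUB and sushi domain proteins, Csmd1 had 2, 5 and 0 against 0, 1 and 4, Csmd3 had 3, 0 and 2 against 3, 3 and 1, and Csmd2 had 0 in all 3 libraries with both drugs against 1, 1 and 1. The mean of Csmd1 was higher while its log2 difference was -0.04. Of the 5 windows of the dystrophin complex list 3 were higher and 2 lower, with Utrn, the dystrophin paralog gene, at 1, 1 and 0 against 1, 1 and 2, and Sgcz, a sarcoglycan gene, at 2, 3 and 2 against 0, 0 and 3. Adgrv1, the very large adhesion receptor gene of sensory hair cells, had 1, 1 and 0 against 3, 3 and 2, the lowest log2 difference at -1.97 (SE 1.005, limma adjusted p = 0.97). Of 5 axon guidance genes 2 were higher and 3 lower, with Efna5, an ephrin ligand gene, at 2, 7 and 1 against 2, 0 and 0. Both glutamate receptor windows off chromosome 6 had a higher mean, with Grid1 at 3, 2 and 1 against 0, 2 and 1. In Csmd2, Utrn and Adgrv1 the groups did not overlap per 1000 either, with both drugs lower; Adgrv1 missed the limma threshold, and Csmd2, Utrn and Adgrb3 held too few junctions to be tested. None of the lists had a called member off chromosome 6, and Auts2, with 23 junctions over the 6 libraries, had the most of those named.

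The same 2 treatments with baits on chromosomes 8 and 12 gave 2 against 2 and 3 against 3 libraries with at least 1000 junctions, and in those the run went with the treatment, so the 2 cannot be told apart there. A library of 949 junctions and one of 133 with the chromosome 8 bait were left out. Permuting labels within each bait (2400 labelings, smallest p = 0.000833), CTR windows on other chromosomes were higher by 0.201 junctions per 1000 per Mb with both drugs over the 3 baits (exact permutation p = 0.0025, adjusted p = 0.0075 over 9 measures), by 0.126 with the chromosome 6 bait, 0.255 with chromosome 8 and 0.223 with chromosome 12. With the 2 small libraries included this turned to -0.125, and without the chromosome 12 bait it was 0.191 (exact permutation p = 0.05). TTR windows differed by 0.0164 (exact permutation p = 0.91) and non-RDC bins by -0.00629 (exact permutation p = 0.0033), which turned to 0.00279 (exact permutation p = 0.999) with the 2 small libraries included. Non-RDC bins are part of the total they are divided by, so their difference is not independent of the CTR difference. RDC windows on the bait's own chromosome were higher by 2.35 (exact permutation p = 0.0033, adjusted p = 0.0075), by 5.50, 1.23 and 0.320 for the 3 baits, and by 0.776 without the chromosome 6 bait (exact permutation p = 0.067). CTR windows of the bait's own chromosome differed by 7.11 with the chromosome 6 bait, 2.47 with chromosome 8 and -0.0265 with chromosome 12, or 3.18 over the 3 baits (exact permutation p = 0.0092, adjusted p = 0.0165). TTR windows there differed by 0.695, 0.611 and 1.36, or 0.888 over the 3 baits (exact permutation p = 0.0033, adjusted p = 0.0075). Chromosome 12 holds 1 TTR window, Klhl29, where the groups overlapped, and the TTR difference was not tested for that bait alone. For all RDC windows of the bait's own chromosome, the chromosome 6 difference minus the mean of the other baits was 4.73 (exact permutation p = 0.0975, adjusted p = 0.44 over 9 measures). That difference was thus not shown to differ between baits.

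Of 9 classes of junction by place, 4 had non-overlapping groups and none passed after adjustment. The share of junctions on chromosome 6 over 1 Mb away was 10.2%, 9.32% and 7.80% with both drugs and 4.98%, 7.11% and 5.62% with ART558 alone. On the side the bait faces, deletions of 200 bp to 10 kb made up 6.85%, 7.07% and 4.97% with both drugs and 13.7%, 7.81% and 17.7% with ART558 alone. That difference of -6.76 points was -4.44 without ART558 replicate 3. Deletions of 10 kb to 1 Mb went the other way, at 1.16%, 1.27% and 0.921% against 0.301%, 0.191% and 0.415%. On the primer side, junctions facing away from the break at 10 kb to 1 Mb were at 2.62%, 2.56% and 1.55% against 0.703%, 0.362% and 1.06%. Deletions of 10 kb to 1 Mb were at 1.08% and 0.896% with DMSO, near their level with both drugs, and at 1.37% with aphidicolin. The primer-side class was at 0.582% and 0.653% with DMSO and at 2.74% with aphidicolin.

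In these 4 of the 9 classes the groups did not overlap (exact permutation p = 0.10 each, adjusted p = 0.225 over 9 classes). The DMSO libraries had 44.8% and 39.4% in deletions of 200 bp to 10 kb and the aphidicolin library 17.1%, which 1 ART558 library passed and the other 5 libraries with ART558 did not. Deletions under 200 bp overlapped, at 13.1%, 12.4% and 12.2% with both drugs against 23.1%, 10.4% and 20.8%, as did the share on other chromosomes, at 46.9%, 46.0% and 58.1% against 38.7%, 65.5% and 34.8%. The remaining 3 classes, inverted junctions on either side and junctions facing away under 10 kb, overlapped as well.

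By distance, junctions 30 to 100 kb from the break separated the groups on both sides. On the lower-coordinate side they were at 11.6, 10.4 and 6.80 per 1000 other-chromosome junctions with both drugs and at 2.59, 0 and 2.91 with ART558 alone, and on the higher-coordinate side at 21.7, 18.9 and 9.34 against 3.11, 1.62 and 7.41. At 10 to 30 kb the groups separated only on the lower-coordinate side, and at 300 to 1000 kb only on the higher. At 100 to 300 kb and at 1000 to 3000 kb they overlapped on both sides. Past 10 Mb the groups overlapped: at 10 to 30 Mb on the lower-coordinate side they were at 14.4, 14.7 and 8.49 against 17.1, 11.7 and 19.3. The band of 3 to 10 Mb, which holds Ctnna2 on the higher side and Ccser1 on the lower, was at 67.8, 57.7 and 38.5 against 8.82, 4.55 and 10.3 on the higher side and at 24.2, 20.97 and 11.3 against 7.26, 5.85 and 11.1 on the lower.

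Over all junctions at more than 1 Mb from the break, the groups overlapped in every measure of the join that was tested. Direct joins made up 30.4%, 32.0% and 29.0% of junctions with 0 to 10 bp of micro-homology with both drugs and 28.7%, 38.9% and 30.6% with ART558 alone (exact permutation p = 0.80, n = 3 each). Micro-homology of 2 bp was at 16.8%, 16.6% and 15.8% against 15.4%, 14.1% and 17.9%; the aphidicolin library had 20.7% direct joins and 21.7% with 2 bp. At no length from 0 to 10 bp did the groups separate (adjusted exact permutation p = 0.90 for all 11). Insertions were in 20.6%, 24.5% and 34.5% against 31.6%, 13.2% and 25.8% (exact permutation p = 0.70, n = 3 each), and ART558 replicate 2 had the lowest share.

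The bait end kept 77.6, 76.1 and 77.2 bp on average with both drugs and 74.96, 78.5 and 74.9 bp with ART558 alone, of a full 98 bp (exact permutation p = 0.60, n = 3 each). The DMSO libraries kept 84.3 and 83.1 bp and the aphidicolin library 79.97 bp, all 3 longer than the 6 with ART558. Of the other-chromosome junctions 46.5%, 46.0% and 45.8% lay in genes with both drugs and 48.4%, 44.8% and 45.3% with ART558 alone (exact permutation p = 1.0), and 5.21%, 4.35% and 3.54% against 4.10%, 4.52% and 5.13% in genes over 0.5 Mb (exact permutation p = 0.80). The share of each of 20 chromosomes was tested in limma and 0 passed, with a smallest adjusted p of 0.92.

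One recurrent prey position off chromosome 6 resembled the guide. The site chr4:141560026-141560048 (mm10, minus strand) differs from it by G1A, A2G, T6C, T16C and A20G, counted from 1 at the guide's 5′ end, with its protospacer-adjacent motif in capitals.
Site: aggggctggaaatgcccgtgAGG
It held 3, 6 and 0 junctions with both drugs and 4, 1 and 20 with ART558 alone, and 10, 36 and 7 in the 2 DMSO and the aphidicolin libraries.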

How the data were processed

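The authors trimmed and demultiplexed the reads, aligned them with Bowtie2 and called junctions with their HTGTS pipeline, and deposited 1 list of junctions per library (mm10, per the submitters' processing notes), with 1 row per joined read, its prey position and strand, the bait and prey coordinates in the read, and the read itself. Deposited rows were used as given. Tool versions are not given in the sources used here. The members, lists and tests were chosen with earlier results of these data known, and chromosome 6 windows and joins inside them were added after these files were seen. Groups were taken from the labels, and 1 incomplete line was left out.

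Windows of 1 Mb were centred on the positions in the study's own list of RDCs, with its CTR and TTR classes, and 1 Mb bins covered the rest of the genome. The density is the number of junctions per 1000 other-chromosome junctions per Mb. Micro-homology is the overlap of bait and prey in the read (0 to 10 bp) and a gap is an insertion. Libraries were compared with two-sided exact permutation tests, and windows with at least 10 junctions with limma 3.58.1 (R 4.3.3) on log2 of junctions plus 0.5, with a Benjamini-Hochberg threshold of 0.05, tested on simulated data. Intervals are 95% Wilson intervals and cover counting error only, since no molecular identifiers were used. Named genes were those the study gives as examples, the 5 highest and 5 lowest log2 differences off chromosome 6, up to 3 members per gene list with the most junctions, and up to 10 windows with non-overlapping groups. Some genes that the rule names, those of chromosome 18 included, are not reported here; counts and densities over windows include them. Replicate numbers did not pair libraries: over 609 windows the deviations of any ART558 and any aphidicolin plus ART558 library correlated between -0.038 and 0.039. Python 3.11.15, NumPy 2.4.6, pandas 2.3.3 and SciPy 1.17.1 were used.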

Additional observations from a re-analysis of the deposited data

How the results depend on the processing

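Replicate numbers did not pair the libraries. The replicate number as a block left 1 window called higher with chromosome 6 included, of 4, none of them Ctnna2, Sox5 or Ccser1, and changed no other call. A minimum of 5 junctions left 2, as did no minimum, and leaving out each library gave 2 to 4. Off chromosome 6 leaving out each library gave 0 to 1 called higher, the 1 being a non-RDC bin of chromosome 9 without ART558 replicate 1. The chromosome 6 CTR density difference was 5.92 to 8.39 without each library.

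Of 390 recomputed values for 36 results, 357 kept their direction and side of the threshold, and 25 turned. Of these 25, 15 were among the 192 that leave out a library. The cause of the turns was not tested. Exact permutation tests within the chromosome 6 bait alone have too few libraries to reach the threshold. For results tested that way, a kept value means only that the direction held. The non-RDC density difference turned to 0.0145 per 1000 of all junctions and to 0.00375 without satellite-like bins in the total. Inverted junctions on the deletion side turned to -0.00434 points with a limit of 5 Mb. Within 1 Mb, direct joins turned to 0.0824 points and 1 bp joins to -1.66. The latter were at -1.21 in RDC windows and -0.0284 with insertions in the denominator. Over all baits, libraries under 1000 junctions turned the CTR difference to -0.125 and the non-RDC difference to 0.00279. Without the chromosome 8 bait the TTR difference was -0.0187. The CTR difference no longer passed without the chromosome 12 bait, at 0.191, nor the bait-chromosome RDC difference without the chromosome 6 bait, at 0.776.

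Differences that changed sign when 1 library was left out ranged as follows. TTR density ranged from -0.0530 to 0.00761 and the log2 RDC to non-RDC ratio from -0.034 to 0.23. In percentage points, other-chromosome junctions ranged from -1.78 to 13.6, inverted deletion-side junctions from -0.102 to 0.203 and primer-side junctions facing away under 10 kb from -1.48 to 4.47. Direct joins ranged from -4.29 to 0.829, 2 bp joins from -0.239 to 1.65 and insertions from -2.16 to 7.02. Genic junctions ranged from -0.784 to 1.01 and long-gene junctions from -0.637 to 0.199. Others moved by over 1.5 times without a change of sign: other-chromosome CTR density (0.0736 to 0.185), chromosome 6 TTR density (0.425 to 0.894), both non-RDC densities (-0.184 to -0.0103 on chromosome 6, -0.00487 to -0.00192 off it) and bait length (0.240 to 2.05 bp). In percentage points, so did deletions under 200 bp (-9.39 to -3.05) and of 200 bp to 10 kb (-9.39 to -4.44), primer-side inverted junctions (0.195 to 0.873) and 1 bp joins (0.0979 to 1.36). With 3 libraries a group the exact permutation test of 1 measure cannot go below p = 0.10. Off chromosome 6, 609 of 2334 windows and bins held the 10 junctions needed for limma. In simulated data limma called 30.2% of windows changed 4-fold, 80.8% of those changed 8-fold and 95.5% of those changed 16-fold. The simulation included chromosome 6 windows and set 1 fixed spread between libraries, which may differ from that of these libraries.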
